A study of Mus musculus with 4 samples.

Results

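Genes of the glutathione, thioredoxin and antioxidant enzyme systems were examined in mouse lens epithelia after ultraviolet B (UVB) irradiation. The 36 genes were chosen by symbol, and 33 of them had a probe set of their own, out of 19938 such genes on the array. A gene with several probe sets was given by the one with the highest mean signal over the 4 arrays. Prdx5, Prdx6 and G6pdx were matched to no probe set in the annotation used here and are not analysed here.

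The comparison was made within animals, male C57BL/6 mice aged 8 weeks. UVB epithelia came from the right eye, irradiated under anesthesia at 30 mJ/cm2, and control epithelia from the foil-shielded left eye. Lens epithelia, the single cell layer under the anterior lens capsule, were isolated 24 h later. In each of 2 independent experiments, 1 array was hybridized for UVB and 1 for control. The methods state 3 mice, and the sources used here do not say whether the RNA on an array was pooled from them. Values are log2 signals, in which a difference of 1 is a doubling. In every probe set, UVB and control signals summed to the same value in both experiments within 0.01, so the arrays carry 1 difference per experiment and no other spread. Apart from rounding, the groups of arrays then cannot overlap where the experiments share a sign. A lack of overlap below only restates that shared sign. The experiment was therefore a block in the limma fit, which has 1 residual degree of freedom. P-values measure only the spread between these arrays.

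The lens is under lasting oxidative load from light, and its epithelium holds much reduced glutathione, which keeps crystallin thiols reduced. Glutathione peroxidases and peroxiredoxins remove hydrogen peroxide with electrons from glutathione or thioredoxin, which their reductases restore at the expense of NADPH. The transcription factor NRF2, held in check by KEAP1, binds antioxidant response elements in the promoters of many of these genes and raises them when KEAP1 cysteines are oxidized.

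The core of that element, searched as TGACNNNGC on both strands, was found by letters in the promoter window of 8 of 28 measured genes for which RefSeq (GRCm38.p6) gave one. The window ran from 250 bases before to 50 bases after the gene start. The letters were present for 28.6% of the 28 genes, against 3781 of all 27025 genes with such a window. A match of letters is a description and not a bound site. Of these matches, those of the textbook NRF2 targets Gclm, Srxn1, Txnrd1 and Prdx1 and of the NRF2 gene itself are shown. Nqo1, Gclc and Slc7a11, whose values below bear on this pathway as well, had no match or no window. Capitals mark the core, and lower case the bases beside it.
Gclm (chr3:122245407-122245447, plus strand): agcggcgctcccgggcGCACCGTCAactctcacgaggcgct
Srxn1 (chr2:152105536-152105573, plus strand): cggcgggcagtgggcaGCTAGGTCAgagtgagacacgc
Txnrd1 (chr10:82859098-82859138, plus strand): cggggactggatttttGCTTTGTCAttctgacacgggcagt
Prdx1 (chr4:116685450-116685490, plus strand): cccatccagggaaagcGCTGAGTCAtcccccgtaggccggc
Nfe2l2 (chr2:75704879-75704913, minus strand): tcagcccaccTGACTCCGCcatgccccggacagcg
In Gclm, Srxn1, Txnrd1 and Prdx1 the core lies in the reverse orientation. The match in Prdx1 overlaps an AP-1 site searched as TGANTCA, and the others shown do not. Msrb2, Pgd and Sod1 also held the core.

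The tissue check preceded the comparison. All 8 markers of lens epithelium and all 8 of lens fibers lay above the median probe set. Their list means differed by −0.05 and 0.01 (epithelium) and by −0.01 and −0.05 (fibers) in experiments 1 and 2. Photoreceptor markers (7 of 8 measured) were higher by 0.61 and 1.01 on average, and those of retinal pigment epithelium (8 of 8) by 1.25 and 0.98. Leukocyte markers (6 of 6) averaged 0.20 and 0.39, with 5 higher in both experiments and Itgam lower in both (−0.21 and −0.18). Müller glia markers (5 of 5) averaged 0.22 and 0.38, with 3 higher in both, and Aqp4 and Vim at −0.02 each in experiment 1. Without Rlbp1, which is also on the pigment epithelium list, the glia means were 0.08 and 0.31. Cornea markers (5 of 5) differed by 0.63 and −0.13 on average. Of 8 red blood cell markers, 2 were measured, both below the median probe set. In such bulk samples, more cells of a type and more RNA per cell cannot be told apart.

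The antioxidant genes were well represented on the arrays, and most differed little between UVB-irradiated and control epithelia. Of the 33, 32 had a mean signal above the median probe set, and 23 exceeded the 75th percentile of each array. Glrx was the exception below the median. Signals of the 33 lay between 6.47 and 13.12. The highest signals were those of Txn1, Gstm1 and Gstp1, although signals of different probe sets do not rank transcripts.

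**Figure D1:**
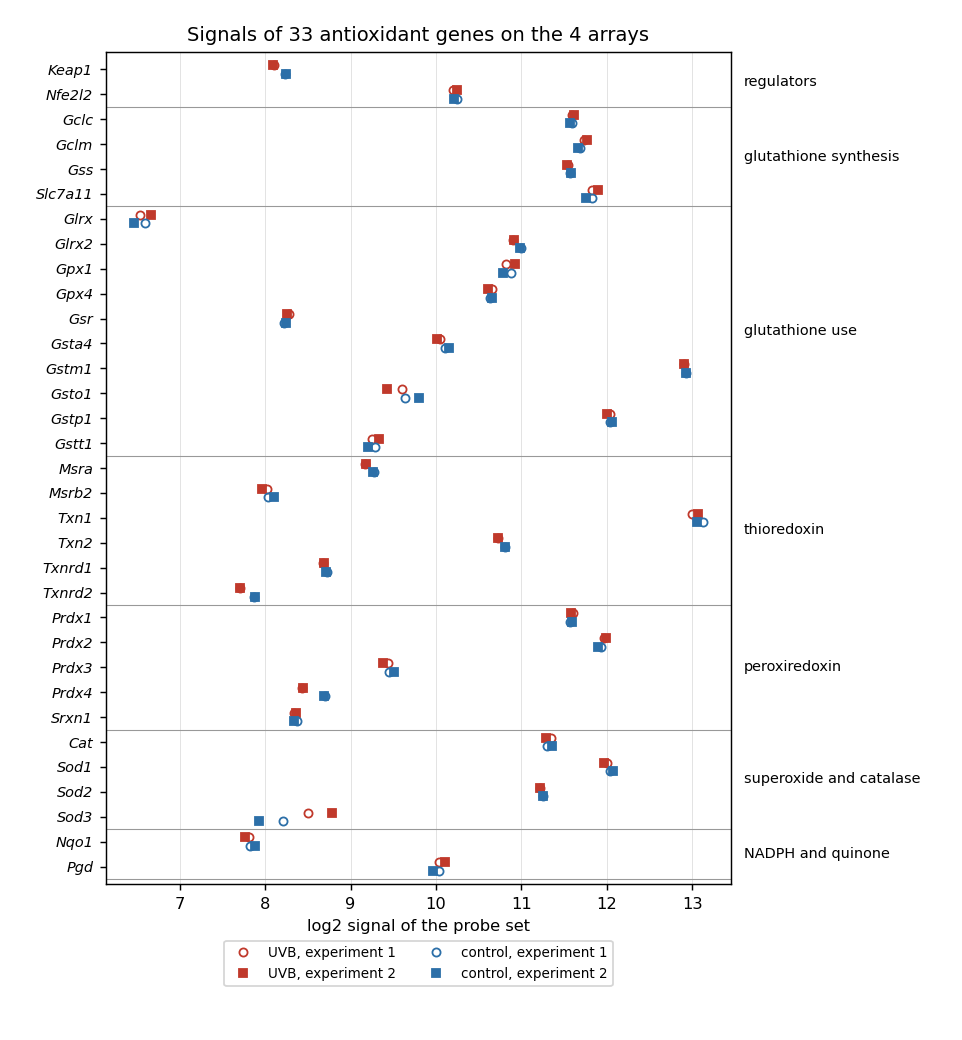
Log2 signals of the 33 antioxidant genes (horizontal) on the 2 UVB arrays (red, upper points of each row) and the 2 control arrays (blue, lower points), open for experiment 1 and filled for experiment 2. The 4 values of most genes nearly coincide, and those of Sod3 spread from 7.93 to 8.78.

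Of the 33 genes, 28 had a mean log2 fold change within 0.1 of 0, or 84.8%, as did 67.9% of all 19938 genes. Among genes above the median level, the share was 84.4% of 32 antioxidant genes against 75.3% of all 10769. The median log2 fold change of the 33 was −0.03 in each experiment, against −0.02 and −0.03 for all genes. With the block, 0 of the 33 passed the study's thresholds (1.8-fold, with p under 0.01 before adjustment), as did 0.0802% of all genes. The paper applied these thresholds in other software, Transcriptome Analysis Console, and reported more genes than the 16 that passed in limma here. At an adjusted p of 0.05, limma called 0 of the 33 and 0.0% of all genes. The lowest adjusted p of any probe set was 0.357, so that an adjusted p sets no gene apart in this fit. At an unadjusted p under 0.05, 3 of the 33 were lower (Prdx4, Txnrd2 and Keap1) against a background of 8.03%, and 0 were higher against 5.14%. Of the 33, 17 were lower in both experiments against 39.5% of all genes, and 4 were higher in both against 22.6%. These counts moved with the scaling of the arrays: with equal 75th percentiles, 9 were lower in both, against 31.5% of all genes, and 7 higher, against 29.0%. Without the block, 6 of the 33 were lower at an adjusted p of 0.05 in limma against a background of 12.0%, and 0 were higher against 6.19%. At an unadjusted p under 0.05 that fit gave 8 lower against 25.5% and 2 higher against 13.3%, with 0 past the study's thresholds against 0.125%.

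**Figure D2:**
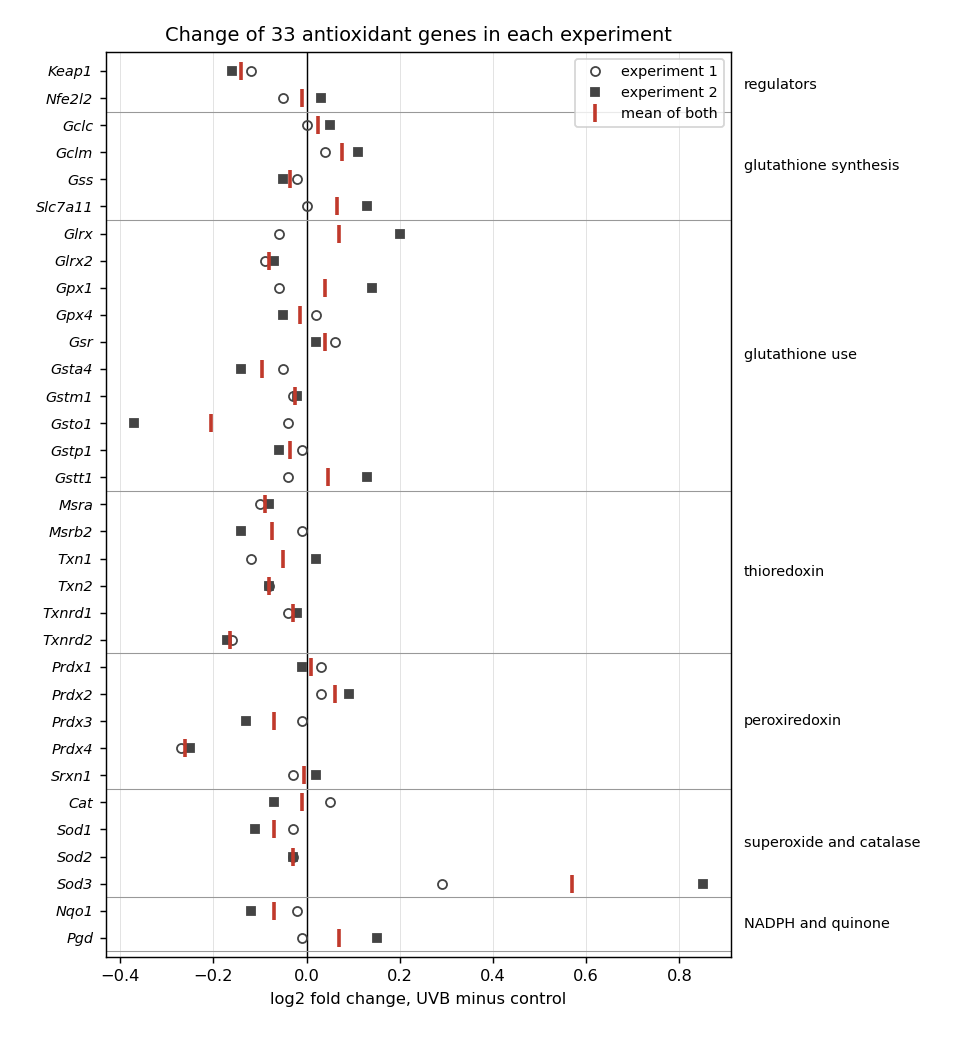
Log2 fold change of UVB over control (horizontal) of the 33 antioxidant genes, ordered by role, in experiment 1 (open circles) and experiment 2 (filled squares) with their mean (red bars). Sod3 lies apart at 0.29 and 0.85, and Prdx4 is the lowest mean at −0.26.

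NRF2 and most of its textbook targets differed little between UVB and control epithelia, with Hmox1 the target farthest from 0. Nfe2l2, which encodes NRF2, had log2 signals of 10.20 and 10.24 in UVB epithelia of experiments 1 and 2, against 10.25 and 10.21 in controls. The groups overlapped, and the log2 fold change of −0.01 (standard error 0.0385) turned positive with quantile normalization (0.009) and with equal 75th percentiles (0.010). Keap1, its inhibitor and the adaptor of a ubiquitin ligase, had signals of 8.11 and 8.09 in UVB epithelia, against 8.23 and 8.25 in controls. Both UVB arrays lay below both control arrays. Limma put the Keap1 difference at −0.14 with a standard error of 0.0305, and its p was 0.0375 before and 0.357 after adjustment. With equal 75th percentiles, the value was −0.12 and the unadjusted p no longer passed 0.05.

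Genes of glutathione synthesis were nearly level. Gclc, the catalytic subunit of glutamate-cysteine ligase and the rate-limiting step, had signals of 11.59 and 11.62 in UVB epithelia, against 11.59 and 11.57 in controls. In Gclm, the modifier subunit, they were 11.73 and 11.77 in UVB epithelia, against 11.69 and 11.66 in controls. Gclm was thus higher in both experiments, by 0.04 and 0.11, at an unadjusted p of 0.163 in limma. Slc7a11, the exchanger that takes in cystine in return for glutamate, had 11.83 and 11.89 in UVB epithelia, against 11.83 and 11.76 in controls. Its groups overlapped. Gss, which completes the tripeptide, had a log2 fold change of −0.035, with −0.02 and −0.05 in experiments 1 and 2.

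Nqo1, Srxn1 and Txnrd1, also textbook NRF2 targets, were as close to 0. Nqo1, a quinone reductase used as a reporter of NRF2 activity, had signals of 7.81 and 7.76 in UVB epithelia, against 7.83 and 7.88 in controls. It was lower by 0.02 in experiment 1 and by 0.12 in experiment 2. Srxn1, the sulfiredoxin that restores overoxidized peroxiredoxins, had 8.34 and 8.36 in UVB epithelia, against 8.37 and 8.34 in controls. The groups of Srxn1 overlapped. Txnrd1, the cytosolic thioredoxin reductase, had 8.68 and 8.69 in UVB epithelia, against 8.72 and 8.71 in controls, without overlap but with a log2 fold change of only −0.03. Over Nqo1, Gclc, Gclm, Srxn1, Txnrd1 and Slc7a11, log2 fold changes lay between −0.07 and 0.075, and the 95% intervals of the fit between −0.243 and 0.271. On a linear scale these intervals span 0.845-fold to 1.21-fold. With Prdx1 and with Hmox1, described among the related genes, the range over 8 targets was −0.255 to 0.075, and the intervals reached from −0.609 to 0.271.

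Genes that use glutathione had a median log2 fold change of −0.02, and none had an unadjusted p under 0.05 in limma. Gsr, glutathione reductase, was higher in both experiments (0.06 and 0.02). Of the 10 genes of this group, 5 were lower in both experiments, namely Glrx2, Gsta4, Gstm1, Gstp1 and Gsto1, where 39.5% of all genes were. Gsto1, an omega-class glutathione transferase that also reduces dehydroascorbate, had signals of 9.60 and 9.43 in UVB epithelia, against 9.64 and 9.80 in controls. Nearly all of its log2 fold change of −0.205 (standard error 0.115, unadjusted p = 0.206 in limma) came from experiment 2, at −0.37 against −0.04 in experiment 1. Gsta4, which conjugates the lipid aldehyde 4-hydroxynonenal, had a log2 fold change of −0.095, with −0.05 and −0.14 in experiments 1 and 2. Gstm1 had 12.90 on both UVB arrays, against 12.93 and 12.92 in controls, and Gstp1 had 12.03 and 12.00 in UVB epithelia, against 12.04 and 12.06 in controls. Both Gstm1 and Gstp1 lay within 0.04 of 0 in the mean.

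Gpx1, Gpx4, Glrx and Gstt1 differed in sign between the experiments. Gpx1, the selenium-dependent cytosolic glutathione peroxidase, had signals of 10.82 and 10.92 in UVB epithelia, against 10.88 and 10.78 in controls. Experiment 1 gave −0.06 and experiment 2 gave 0.14. Gpx4, which reduces phospholipid hydroperoxides, had a log2 fold change of −0.015, and −0.025 in its other probe set. Glrx, cytosolic glutaredoxin, had 6.54 and 6.67 in UVB epithelia, against 6.60 and 6.47 in controls, at the lowest signals of the 33 genes. It was lower in experiment 1 (−0.06) and higher in experiment 2 (0.20). Glrx2, the mitochondrial form, was lower in both (−0.09 and −0.07), and Gstt1 had −0.04 and 0.13.

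The 6 measured genes listed as the thioredoxin group of the antioxidant genes had negative mean log2 fold changes, between −0.165 and −0.03. Of these, 5 were lower in both experiments. The median of all genes was also negative, at −0.025, and 39.5% of them were lower in both. Txnrd2, the mitochondrial thioredoxin reductase, had signals of 7.71 on both UVB arrays, against 7.87 and 7.88 in controls. The log2 fold change was −0.165 (standard error 0.0275, 95% interval −0.275 to −0.055), which the experiments shared at −0.16 and −0.17. In limma, p was 0.0217 before and 0.357 after adjustment. Txn2, the mitochondrial thioredoxin that Txnrd2 reduces, had 10.73 on both UVB arrays, against 10.81 on both control arrays, at an unadjusted p of 0.0898. Txn1, the cytosolic form, had 13.00 and 13.07 in UVB epithelia, against 13.12 and 13.05 in controls, and was lower only in experiment 1. Msra and Msrb2, which repair oxidized methionine with electrons from thioredoxin, had log2 fold changes of −0.09 and −0.075, at unadjusted p of 0.0763 and 0.275 in limma. The 5 genes of this group lower in both experiments are Txn2, Txnrd1, Txnrd2, Msra and Msrb2. All 6 means of the group stayed negative under the alternative scalings. Related genes outside the group, from the list of other redox genes, did not share 1 sign. Txnl1 (0.03), Txndc17 (0.04) and Msrb1 (0.055) had positive mean log2 fold changes. Those of Nxn (−0.08), Txnip (−0.105), Msrb3 (−0.155) and Txnrd3 (−0.17) were negative.

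Among peroxiredoxins, Prdx4 had the lowest mean of the 33 genes. Prdx4, which works in the endoplasmic reticulum and couples peroxide removal to disulfide formation, had signals of 8.43 and 8.44 in UVB epithelia, against 8.70 and 8.69 in controls. Both UVB arrays lay below both control arrays. The log2 fold change was −0.26, or 0.835-fold (standard error 0.0281, 95% interval −0.372 to −0.148). With −0.27 and −0.25, the experiments agreed within 0.02. In limma, p was 0.00869 before and 0.357 after adjustment, and the difference stayed under the 1.8-fold threshold.

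The other peroxiredoxins were nearer 0. Prdx1 and Prdx2, the abundant cytosolic forms, had log2 fold changes of 0.01 and 0.06 in their brighter probe sets, against −0.025 and −0.03 in their other probe sets, so that the sign depended on the probe set. Prdx3, the mitochondrial form, had −0.01 and −0.13 in experiments 1 and 2. Prdx3, which forms a mitochondrial peroxide-removing chain with Txn2 and Txnrd2, had an unadjusted p of 0.279 in limma.

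**Figure D3:**
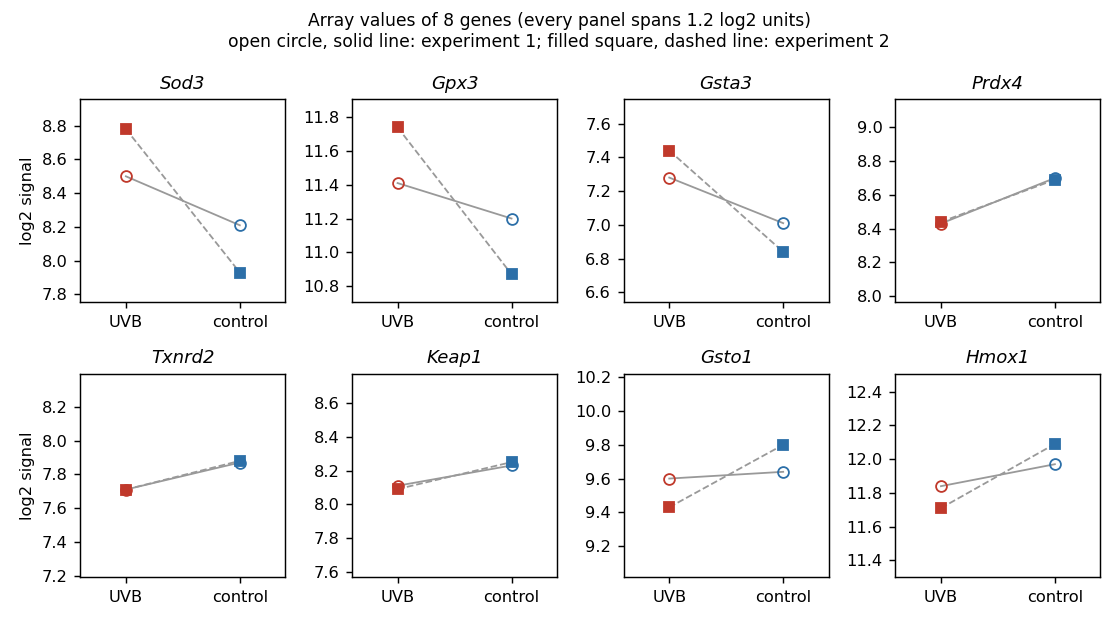
Log2 signals (vertical, every panel 1.2 units high) of 5 antioxidant genes that differed most between the groups and of Gpx3, Gsta3 and Hmox1 from the related list, in UVB (left) and control epithelia (right). Lines join the arrays of an experiment: Prdx4, Txnrd2 and Keap1 have nearly the same slope in both, whereas Sod3, Gpx3 and Gsto1 are steeper in experiment 2.

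Of the superoxide dismutases, the extracellular form stood apart. Sod3, secreted and bound to heparan sulfate of the matrix, had signals of 8.50 and 8.78 in UVB epithelia, against 8.21 and 7.93 in controls. With both experiments higher, both UVB arrays lay above both control arrays, with means of 8.64 in UVB epithelia and 8.07 in controls. The log2 fold change was 0.57, or 1.48-fold (standard error 0.192), and the experiments differed at 0.29 and 0.85. In limma, p was 0.0874 before and 0.371 after adjustment, with a 95% interval of −0.193 to 1.333 that includes 0. With quantile normalization the unadjusted p passed 0.05. The means of the photoreceptor, Müller glia and leukocyte marker lists were likewise higher in both experiments and more so in experiment 2. Pigment epithelium markers had the opposite order, with a mean of 0.98 in experiment 2 and 1.25 in experiment 1. Their part in the value of Sod3 was not tested.

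The intracellular enzymes of this group did not share it. Sod1, the copper-zinc dismutase of the cytosol, had 12.00 and 11.96 in UVB epithelia, against 12.03 and 12.07 in controls. Sod2, the manganese dismutase of mitochondria, had 11.22 on both UVB arrays, against 11.25 on both control arrays. Cat, which breaks down hydrogen peroxide in peroxisomes, had 11.35 and 11.29 in UVB epithelia, against 11.30 and 11.36 in controls. Sod1 and Sod2 were lower in both experiments, by 0.07 and 0.03 in the mean, and the groups of Cat overlapped. The 95% interval of Cat ran from −0.205 to 0.185. Pgd, a source of NADPH in the pentose phosphate pathway, had 10.03 and 10.11 in UVB epithelia, against 10.04 and 9.96 in controls, which also overlapped.

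Of 67 other redox genes, listed without regard to how they moved, 63 had a probe set of their own. Their median log2 fold change was −0.025, as for all genes, and 42 lay within 0.1 of 0, or 66.7% against 67.9% of all genes. At an unadjusted p under 0.05, 2 were higher, or 3.17% against 5.14% of all genes, and 5 lower, or 7.94% against 8.03%. In limma, 0 passed an adjusted p of 0.05. Gstk1, a mitochondrial and peroxisomal glutathione transferase, had signals of 10.23 and 10.22 in UVB epithelia, against 10.48 on both control arrays (log2 fold change −0.255, unadjusted p = 0.00864). Glrx3, a monothiol glutaredoxin of iron-sulfur metabolism, had 8.22 and 8.25 in UVB epithelia, against 8.51 and 8.48 in controls. Prdx4, Gstk1 and Glrx3 had close to the same difference, each at least 0.23 lower in both experiments. They were named for a low unadjusted p in limma, so their likeness follows in part from that choice. Sesn1, a p53-regulated sestrin, had a log2 fold change of −0.175, whereas its paralog Sesn2 had 0.14. Slc7a9, a cystine transporter subunit, had a log2 fold change of −0.20, with signals of 5.76 and 5.81 in UVB epithelia, against 6.01 and 5.96 in controls. Mgst2, a microsomal glutathione transferase, had 0.20, with signals of 5.63 and 5.57 in UVB epithelia, against 5.37 and 5.43 in controls. The signals of Mgst2 lay below the 25th percentile of every array (5.91 to 5.94), and those of Slc7a9 lay near it. Msrb3, a methionine sulfoxide reductase of the endoplasmic reticulum and mitochondria, completed the 5 lower genes at −0.155.

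Hmox1, the heme oxygenase and one of the most inducible NRF2 targets, had signals of 11.84 and 11.71 in UVB epithelia, against 11.97 and 12.09 in controls. Both UVB arrays were lower than both control arrays. The log2 fold change was −0.255 (standard error 0.089, 95% interval −0.609 to 0.099), at an unadjusted p of 0.0935 in limma. Experiment 1 gave −0.13 and experiment 2 gave −0.38. Txnip, the inhibitor of thioredoxin, had 8.24 and 8.35 in UVB epithelia, against 8.46 and 8.34 in controls, and was lower only in experiment 1.

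Larger differences were found in 3 genes of that list, chosen after their values were seen. Their mean log2 fold changes lay more than 0.26 from 0, as for 4.76% of the 63 genes and 5.06% of all genes. Their number is thus close to the share over the whole array. Gpx3, the secreted glutathione peroxidase of plasma and extracellular fluid, had signals of 11.41 and 11.74 in UVB epithelia, against 11.20 and 10.87 in controls. Its log2 fold change of 0.54 (standard error 0.225, unadjusted p = 0.128 in limma) had the same imbalance as Sod3, with 0.21 in experiment 1 and 0.87 in experiment 2. Gsta3, an alpha-class glutathione transferase, had 7.28 and 7.44 in UVB epithelia, against 7.01 and 6.84 in controls. Its log2 fold change was 0.435 (standard error 0.115) at an unadjusted p of 0.0553. Idh1, the NADPH-forming cytosolic isocitrate dehydrogenase, had 10.31 and 10.16 in UVB epithelia, against 10.53 and 10.68 in controls, with a log2 fold change of −0.37 (standard error 0.105, unadjusted p = 0.0637). Like Gpx3 and Gsta3, the means of the photoreceptor, glia and leukocyte marker lists were higher in both experiments and more so in experiment 2. Not every marker shared this: Rlbp1 and Csf1r had the opposite order, and Itgam was lower in both. The pigment epithelium list also had the opposite order, at 1.25 and 0.98. The part of these cell types in the values of Gpx3 and Gsta3 was not tested.

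**Figure D4:**
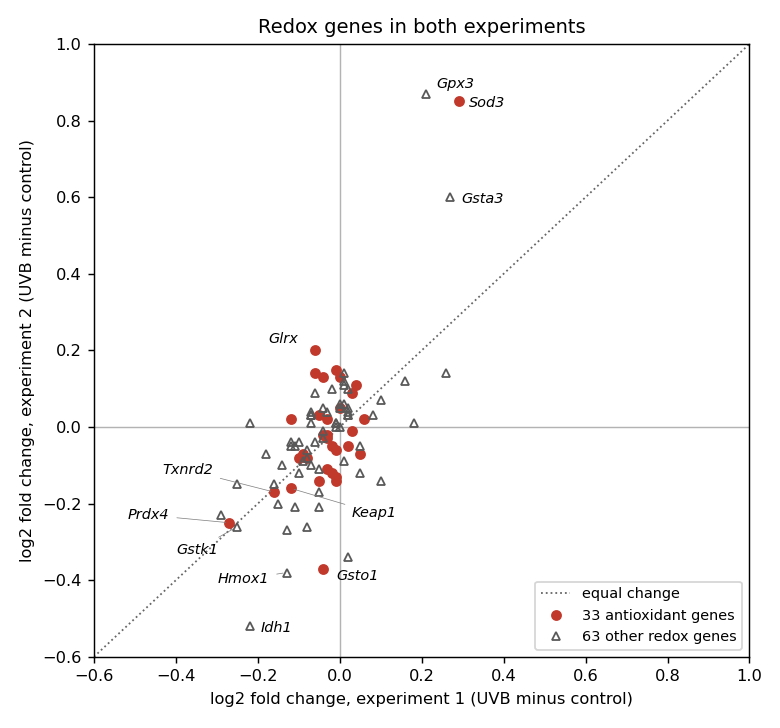
Log2 fold change (UVB minus control) in experiment 1 (horizontal) and experiment 2 (vertical) of the 33 antioxidant genes (red) and the 63 other redox genes (open triangles), with equal change on the dotted line. Sod3, Gpx3 and Gsta3 lie above the line at the upper right, Prdx4 lies close to it at −0.27 and −0.25, and most genes cluster near 0.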

How the data were processed

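Log2 signals of 4 arrays were deposited, which the authors normalized in Affymetrix Expression Console (the sources used here state neither its version nor the background correction and summarization). Per the file's values, 28944 probe sets lay between 1.49 and 13.97, with array medians of 7.22 and 7.21 in UVB and 7.19 and 7.20 in control epithelia. Symbols came from the platform annotation of the probe sets: 21789 had 1 symbol, 1621 several and 5534 none. Only the first kind names a gene, and none needed updating by its gene ID. The methods name a human array, whereas the probe sets carry mouse symbols.

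The contrast of UVB over control was fitted with limma 3.58.1 (R 4.3.3) on all probe sets, two-sided, with Benjamini-Hochberg adjustment and the experiment as a block, since the eyes compared were of the same mice and the experiment means were equal in each probe set. With them equal, the deviations of same-numbered arrays had a correlation of −0.998, which says nothing of pairing, and the fit without the block counts 2 residual degrees of freedom where the values hold 1. The experiment number comes from the titles, in which only experiment 2 is numbered. For single values, an exact test of 2 arrays against 2 allows no p below 0.333. The precision is limited by the number of arrays. Group SDs only restate the gap between the experiments and are not given. Values are rounded to 2 decimals, and the smallest standard errors come from limma's prior. The main fit was tested on simulated data, where it recovered doublings at the study's thresholds but made no call at an adjusted p of 0.05. A count of 0 at that threshold in the main fit therefore carries no information. Changes smaller than a doubling, such as the 1.48-fold of Sod3, were not simulated, so their recovery is not known. Most genes given with every array value followed a rule (largest and smallest changes, unadjusted p under 0.05, largest differences between experiments, highest and lowest signals, and fixed pathway genes). Txn2, Gpx3, Gsta3 and Idh1 were given outside it. The members, lists and rule were chosen with earlier results of these data known.

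The alternatives were no block, an intensity trend, a robust prior, 3 other scalings, only probe sets above the median level, the mean of a gene's probe sets, leaving out each array, and other thresholds.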

Additional observations from a re-analysis of the deposited data

How the results depend on the processing

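In limma with no replicate block, 6 of the 33 antioxidant genes passed an adjusted p of 0.05, all lower (Prdx4, Txnrd2, Txn2, Keap1, Msra and Glrx2) against a background of 12.0% lower, where the paired fit called 0. At an unadjusted p under 0.05, that fit gave 2 higher and 8 lower antioxidant genes, and 4 higher and 22 lower of the other redox genes, against 13.3% higher and 25.5% lower of all genes. It counts a degree of freedom that the values do not hold. The 3 lower genes of the paired fit became 6 with an intensity trend (9.25% of all genes) and 6 with only probe sets above the median level (12.8%), and 1 gene was higher with a robust prior (6.68%) or with quantile normalization (6.60%). With the block kept, limma with the robust prior called 75 of all 19938 genes at an adjusted p of 0.05. Of these, 67 were higher and 8 lower, and 0 were among the 33. The median log2 fold change of −0.03 was −0.0163 with quantile normalization, −0.05 with median centring of the arrays and −0.01 with equal 75th percentiles. Genes higher in both experiments numbered 7 with quantile normalization (27.1% of all genes) and 7 with equal 75th percentiles (29.0%), where 9 were lower in both (31.5%). Gpx4, Prdx1, Srxn1, Cat and Nfe2l2, all within 0.015 of 0, changed sign under at least 1 of these scalings. In none of the alternatives that keep both experiments did an antioxidant gene pass 1.8-fold at an unadjusted p of 0.05, or 1.5-fold at 0.01. In experiment 2 alone, the log2 fold change of Sod3 was 0.85. Leaving out 1 array leaves 1 experiment with the block and no residual degree of freedom, so that only a value can be given, and the median stayed at −0.03. The cause of these differences was not tested.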

Other observations

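The 2 probe sets shared by Gstp1 and Gstp2, assigned to neither gene, had log2 fold changes of −0.01 each, close to the −0.035 of the probe set of Gstp1 alone. Of these 2, 1 had signals of 10.58 and 10.56 in UVB epithelia, against 10.57 and 10.59 in controls, and the other had 10.67 on both UVB arrays, against 10.68 on both control arrays.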
